A study of Homo sapiens with 8 samples.

Results

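Genes of the endoplasmic reticulum (ER), its chaperones and the unfolded protein response were followed in A375 cells, a human melanoma line, on 8 HG-U133 Plus2 arrays. The 40 genes were taken by symbol, and every probe set that the array annotation gives to 1 of these symbols alone was used, which yielded 97 of 41091 single-symbol probe sets, for 38 of 19775 genes. TXNDC5 and SYVN1 had only probe sets that carry a second symbol and have no value here. DERL3 was dim, with signals of 0.5 to 9.7 over its 3 probe sets and the 8 arrays, and was not tested. The other 37 genes passed the filter on dim genes, which asks for a signal at or above the array's own median on at least 2 of the 8 arrays in any group. Of the 97 probe sets, 84 passed it.

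Each of 4 groups had 2 arrays. They are called shHSF1/Dox/HSP990 (hairpin against HSF1, Doxycycline, NVP-HSP990), shHSF1/HSP990 (the same line and inhibitor, no Doxycycline), shNTC/Dox/DMSO (non-targeting hairpin, Doxycycline, DMSO) and shNTC/DMSO (the same line and vehicle, no Doxycycline). shHSF1 cells carried a single hairpin against HSF1, the master transcription factor of the heat shock response, and shNTC cells a non-targeting hairpin, both in a Doxycycline-inducible lentiviral vector with puromycin selection. NVP-HSP990, an inhibitor of HSP90, was given at 100 nM and DMSO at 0.1%, for 3 h, and Doxycycline at 100 ng/ml. The titles mark 4 of the 8 arrays as with Doxycycline. All groups shared the parent line, the vector backbone and 3 days of culture before treatment. Both groups with NVP-HSP990 were shHSF1 cells and both groups with DMSO were shNTC cells, so the inhibitor and the hairpin line cannot be told apart. Whether separate cultures lie behind the 2 arrays of each group is not in the labels, so the p-values rest on the spread between these arrays alone, and that spread may be technical.

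Proteins that enter the secretory pathway are folded in the ER by the HSP70 family member BiP (HSPA5), the HSP90 paralogue GRP94 (HSP90B1), lectin chaperones and protein disulfide isomerases. When unfolded proteins build up there, 3 sensors in the ER membrane signal to the nucleus: IRE1 (ERN1) splices the mRNA of XBP1, PERK (EIF2AK3) phosphorylates eIF2alpha and favours translation of ATF4, and ATF6 is cut in the Golgi to release a transcription factor. These arms raise the mRNA of ER chaperones, of the machinery that sends misfolded proteins to the proteasome, and, through ATF4, of CHOP (DDIT3). Array signals report mRNA amount and do not show splicing of XBP1 or cleavage of ATF6.

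HSF1, the knockdown target, had signals of 5.5 and 7.3 in shHSF1/Dox/HSP990 cells, against 99 and 42.5 in shHSF1/HSP990 cells, and 36.6 to 47.9 on the 4 shNTC arrays. The array medians were 10.6 to 14.2, and the log2 values of any 2 arrays had an r of 0.980 to 0.995 (28 pairs). As a measure of RNA quality, the ratio of the 3-prime to the 5-prime ACTB probe sets was 46.8 on the second shNTC/Dox/DMSO array, with 4.73 to 18.9 on the other 7. Of 7 melanocyte lineage markers on the array, MITF, SOX10 and S100B were at or above the array median on all 8 arrays, while PMEL, MLANA, TYR and TYRP1 were below it on all 8. The summed signal of 6 colon epithelial markers was 16.1 to 30.7 and that of 6 hepatocyte markers 35.9 to 100.1. The 6 fibroblast markers summed to 894.2 and 824.1 in shHSF1/Dox/HSP990 cells, against 490.3 to 630.1 on the other 6 arrays. Of these 6, LUM alone was higher there, with 756.3 and 708.2 in shHSF1/Dox/HSP990 cells, against 373.5 to 460.3 on the other 6 arrays (0.71 on the log2 scale with the knockdown, adjusted p = 0.0385 by limma). COL1A1 and PDGFRA had changes of -0.38 and -0.40 with the knockdown, which did not pass, and COL3A1 did not exceed 8.9. The part of these marker levels in the results below was not tested.

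The promoters of 4 genes on which the results turn are given first, to show the ER stress letters in both genes that rose and in HSPA5, and the window of ATF6, which lacked them. Each is the 250 bases before the annotated start of the gene in RefSeq (GRCh38.p14), 5′ to 3′ on the gene's strand, with every searched motif in capitals. XBP1 lies at chr22:28800570-28800819 on the minus strand, HERPUD1 at chr16:56931892-56932141 on the plus strand, HSPA5 at chr9:125241344-125241593 on the minus strand and ATF6 at chr1:161766070-161766319 on the plus strand.
XBP1: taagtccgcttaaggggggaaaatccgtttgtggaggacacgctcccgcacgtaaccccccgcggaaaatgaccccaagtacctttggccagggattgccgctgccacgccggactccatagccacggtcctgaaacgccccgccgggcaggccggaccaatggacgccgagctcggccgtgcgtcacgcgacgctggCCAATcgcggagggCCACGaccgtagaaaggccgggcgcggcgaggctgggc
HERPUD1: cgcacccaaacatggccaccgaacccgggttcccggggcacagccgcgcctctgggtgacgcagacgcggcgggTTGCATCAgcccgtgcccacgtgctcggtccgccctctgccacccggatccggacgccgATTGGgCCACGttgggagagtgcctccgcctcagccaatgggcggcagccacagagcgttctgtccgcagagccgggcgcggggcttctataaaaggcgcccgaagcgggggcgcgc
HSPA5: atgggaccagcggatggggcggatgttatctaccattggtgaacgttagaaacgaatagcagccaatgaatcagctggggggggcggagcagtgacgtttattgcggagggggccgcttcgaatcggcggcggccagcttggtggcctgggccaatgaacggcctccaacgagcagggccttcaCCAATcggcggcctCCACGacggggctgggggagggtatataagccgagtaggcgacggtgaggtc
ATF6: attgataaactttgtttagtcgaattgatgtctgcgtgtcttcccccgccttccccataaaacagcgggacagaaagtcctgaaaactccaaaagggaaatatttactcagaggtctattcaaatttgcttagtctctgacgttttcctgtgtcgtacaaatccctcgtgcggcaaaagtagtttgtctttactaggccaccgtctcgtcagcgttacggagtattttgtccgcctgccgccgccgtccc
The motifs, 5 in all, were searched on both strands in windows of 300 bases, 250 before and 50 after the start, for the 36 of 40 genes with a RefSeq promoter and for all 35116 promoters. DERL1, DERL3, PDIA3 and SEC24D had no entry. The ER stress response element ERSE (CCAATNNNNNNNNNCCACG), the site of ATF6 with NF-Y, was in 7 of the 36 promoters (19.4%), those of CALR, CANX, CRELD2, ERO1B, HSP90B1, HSPA5 and XBP1, and in 27 of all 35116 (0.0769%). ERSE-II (ATTGGNCCACG) was in the promoters of HERPUD1, HYOU1 and SDF2L1 (3 of 36, 8.33%) and in 19 of all (0.0541%). The UPRE core (TGACGTGG), a site of XBP1 and ATF6, was in those of DNAJC10 and HYOU1 (5.56%, against 0.729% of all), and in HYOU1 it overlapped one of its ERSE-II matches. The genes had been gathered as known members of the ER stress response, so these shares describe the list. A site of ATF4 (TGATGCAA) was in HERPUD1 alone (2.78%, against 0.866% of all), and in the sequence above it is read on the minus strand. The heat shock element of 3 units (GAANNTTCNNGAA), the site of HSF1, was in 0 of the 36 promoters, in 4 of 20 promoters of cytosolic heat shock genes (CHORDC1, DNAJA1, HSPA6 and HSPA8) and in 172 of all (0.490%). A match describes letters in these windows and is not a measured binding site.

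NVP-HSP990 was compared between shHSF1/HSP990 cells and shNTC/DMSO cells, which also differ in the hairpin line. A change with NVP-HSP990 below thus holds both differences. By limma with Benjamini-Hochberg adjustment over 12672 genes, 0 of the 37 genes passed an adjusted p under 0.05, while 28 of all genes did (0.221%). At an unadjusted p under 0.05 there were 5 of the 37 and 628 of all genes. The median log2 change of the 37 was 0.08, against 0.01 over all genes tested. Values here are MAS5 signals, computed and scaled by the authors on a linear scale, and changes are differences of log2(signal + 16), which understate the change of dim genes.

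The knockdown of HSF1 was compared between shHSF1/Dox/HSP990 cells and shHSF1/HSP990 cells. One of the 37 genes passed, ATF6, which fell, while 360 of all genes passed (2.84%), 234 of them lower (1.85%). At an unadjusted p under 0.05 there were 4 of the 37 and 1943 of all 12672 genes. The median log2 change was 0.07, against 0.00 over all genes. Doxycycline alone, compared between shNTC/Dox/DMSO cells and shNTC/DMSO cells, called 0 of the 37 and 0 of all genes (0%) by limma, with 0 and 306 at an unadjusted p under 0.05 and medians of 0.04 and -0.01. By the methods' t-test Doxycycline gave 0 of the 37 and 588 of all genes unadjusted.

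The knockdown with NVP-HSP990 was compared between shHSF1/Dox/HSP990 cells and shNTC/Dox/DMSO cells, which differ in hairpin and inhibitor and share Doxycycline. XBP1 and HERPUD1 rose and ATF6 fell, 3 of the 37 genes, where 739 of all genes passed (5.83%), 360 of them higher (2.84%) and 379 lower (2.99%). At an unadjusted p under 0.05 there were 6 of the 37 and 2472 of all 12672 genes, and the median was 0.06 against 0.01 over all genes. The interaction, the change with the knockdown minus that with Doxycycline alone, called 0 of the 37 and 100 of all genes (0.789%) by limma, with 4 and 1337 at an unadjusted p under 0.05. These comparisons share groups, so a gene's values in them are not independent of each other.

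**Figure D1:**
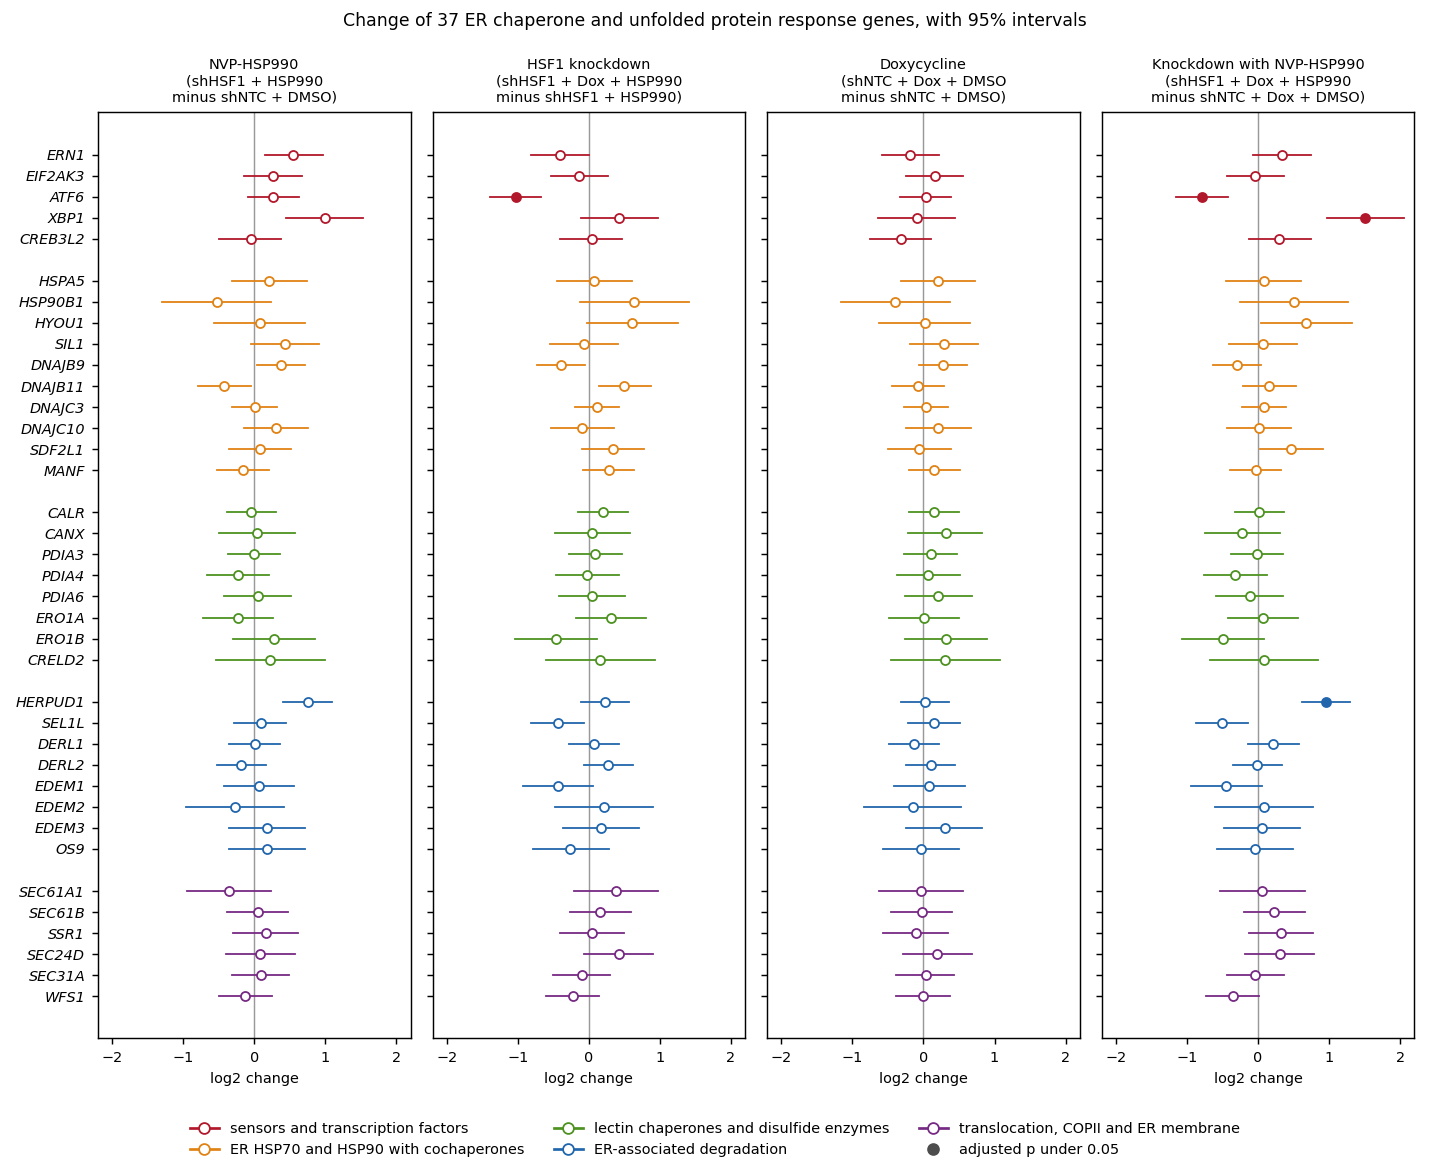
Log2 change (x axis) of each of the 37 genes tested (y axis, grouped by role) in 4 comparisons, with the 95% interval from limma as a line and filled points where the adjusted p was under 0.05. Most intervals cover 0; ATF6 lies at -1.03 in the knockdown, and XBP1 at 1.51, HERPUD1 at 0.96 and ATF6 at -0.79 in the knockdown with NVP-HSP990.

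ATF6, the membrane-bound sensor and transcription factor, had signals of 128.9 and 132.9 in shHSF1/Dox/HSP990 cells, against 285.2 and 282.9 in shHSF1/HSP990 cells. They were 229.1 and 246.4 in shNTC/Dox/DMSO cells and 240.0 and 225.1 in shNTC/DMSO cells. Both arrays with the induced HSF1 hairpin were thus below each of the other 6. ATF6 fell by 1.03 on the log2 scale with the knockdown, a fold of 2.04 (standard error 0.16, adjusted p = 0.00898 by limma, 2 arrays against 2), and 150 of 12672 genes, itself included, had a change as low or lower. It also fell, by 0.79, with the knockdown with NVP-HSP990 (standard error 0.16, adjusted p = 0.0205). With NVP-HSP990 its log2 change was 0.27 (95% interval -0.09 to 0.63, adjusted p = 1.00) and with Doxycycline alone 0.03 (-0.33 to 0.39). The test of the difference between the knockdown and Doxycycline alone gave -1.06 (standard error 0.23, adjusted p = 0.0756, which misses the threshold). The call in the knockdown was lost without the first shHSF1/HSP990 array (adjusted p = 0.0541) and in a fit of the 4 shHSF1 arrays alone (adjusted p = 0.0721). The call against shNTC/Dox/DMSO cells was lost without either shHSF1/Dox/HSP990 array, without the second shNTC/Dox/DMSO array and without either shNTC/DMSO array (adjusted p = 0.0547 to 0.0965), with the mean of the gene's probe sets (-0.43, adjusted p = 0.0882) and in a fit of the comparison's arrays alone (adjusted p = 0.0682). The methods' t-test lost both calls.

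ATF6 had 4 probe sets, and the values above are those of 226941_at. Probe set 231927_at had signals of 55.5 and 56.3 in shHSF1/Dox/HSP990 cells, against 97.8 and 100.5 in shHSF1/HSP990 cells, and 76.8 to 96.2 on the shNTC arrays. Probe set 203952_at had 151.5 and 201.8 against 214.2 and 272.4, and probe set 217550_at 38.9 and 48.6 against 63.0 and 52.2, in the same order of the 2 shHSF1 groups. In all 4 probe sets both arrays with the knockdown were below both shHSF1/HSP990 arrays. Against the shNTC arrays, 231927_at was also below all 4, as was 226941_at, while 203952_at and 217550_at overlapped with them. When all 24631 single-symbol probe sets were tested singly, 226941_at was the only one of the 84 called in the knockdown (1.88% of all probe sets were called), and that call was lost without any one of the 4 shHSF1 arrays (adjusted p = 0.0640 to 0.0783). Its call in the knockdown with NVP-HSP990 was lost in this test without either shHSF1/Dox/HSP990 array or any one of the 4 shNTC arrays (adjusted p = 0.0521 to 0.124). The 4 probe sets read 1 gene and are not replicates.

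**Figure D2:**
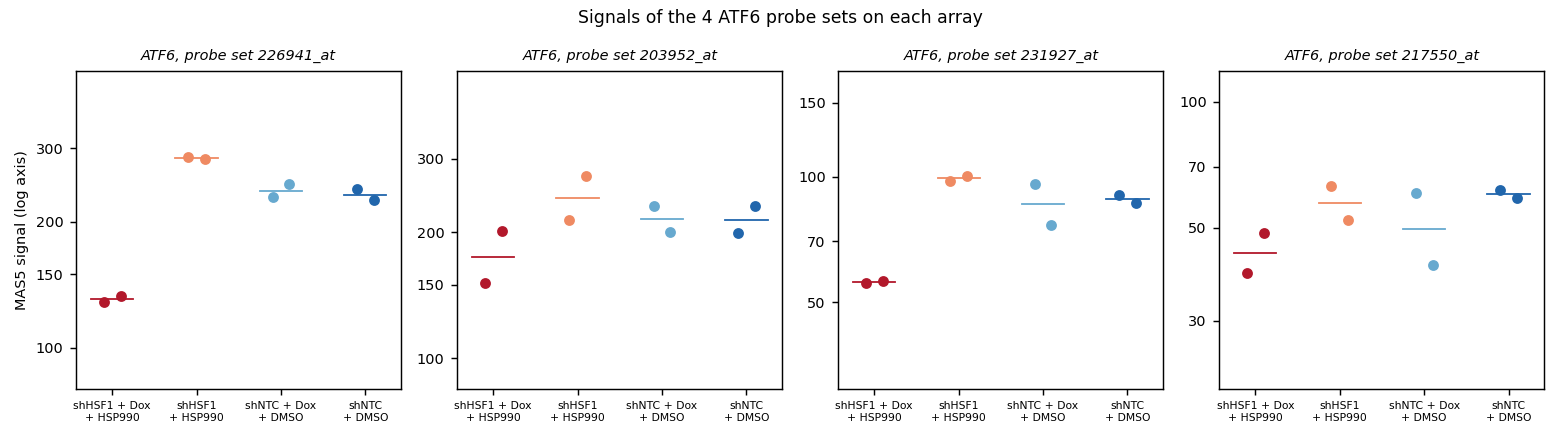
MAS5 signal (y axis, log scale, each panel with its own range) of the 4 ATF6 probe sets on each array, by group (x axis), with the geometric mean of the 2 arrays as a line. Probe sets 226941_at and 231927_at have both arrays with the induced HSF1 hairpin below the other 6, at 128.9 and 132.9 and at 55.5 and 56.3.

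XBP1, the transcription factor whose mRNA is spliced by IRE1, had signals of 682.6 and 810.1 in shHSF1/Dox/HSP990 cells and of 409.5 and 733.9 in shHSF1/HSP990 cells. In shNTC/Dox/DMSO cells they were 258.3 and 242.2, and in shNTC/DMSO cells 241.0 and 298.1. All 4 arrays with NVP-HSP990, which are the shHSF1 arrays, were above all 4 with DMSO, which are the shNTC arrays. The shHSF1 groups overlapped with each other. In the knockdown with NVP-HSP990 XBP1 rose by a log2 of 1.51, a fold of 2.85 (standard error 0.24, adjusted p = 0.00635 by limma), and 51 of 12672 genes had a change as high or higher. With NVP-HSP990, where the hairpin line differs too, the change was 0.99 (95% interval 0.45 to 1.53, adjusted p = 0.294 by limma). With the knockdown it was 0.43 (-0.11 to 0.97, adjusted p = 0.460). The 2 shHSF1/HSP990 arrays lay far apart, and without the first of them the change with NVP-HSP990 was 1.40. That first array had an ACTB 3-prime to 5-prime ratio of 18.9, and the part of RNA quality was not tested. The call against shNTC/Dox/DMSO cells was lost without the second array of those shNTC cells (1.47, adjusted p = 0.0517) and with the mean of the gene's 2 probe sets (0.75, adjusted p = 0.0773), of which the second did not exceed 7.5 on any array. The methods' t-test lost it as well, and tested singly 200670_at also lost it without the second shHSF1/Dox/HSP990 array (adjusted p = 0.0840). The probe sets do not tell the spliced from the unspliced mRNA.

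ERN1, the IRE1 kinase and ribonuclease, had signals of 119.7 and 109.5 in shHSF1/Dox/HSP990 cells and 156.5 and 156.4 in shHSF1/HSP990 cells. They were 88.8 and 85.6 in shNTC/Dox/DMSO cells and 107.4 and 96.2 in shNTC/DMSO cells. In this probe set, 227755_at, the 4 arrays with NVP-HSP990 (shHSF1 cells) were again above the 4 with DMSO (shNTC cells). Of the arrays with NVP-HSP990, the pair without Doxycycline was the higher. Its log2 changes were 0.55 with NVP-HSP990 (95% interval 0.15 to 0.96, adjusted p = 0.665) and -0.40 with the knockdown (-0.81 to 0.00, adjusted p = 0.331), and neither passed. The other ERN1 probe set above the filter, 235745_at, had 83.6 and 116.2 in shHSF1/Dox/HSP990 cells and 71.9 and 57.2 in shHSF1/HSP990 cells, against 57.7 and 49.8 in shNTC/Dox/DMSO cells and 63.9 and 41.6 in shNTC/DMSO cells. Here the arrays with the knockdown were the higher and the groups without it overlapped. Its change with the knockdown was 0.52 (adjusted p = 0.367 by limma, tested singly), opposite in sign to that of 227755_at, and the mean of the gene's probe sets gave 0.03. EIF2AK3, the PERK kinase, had 122.2 and 127.8 in shHSF1/Dox/HSP990 cells, 138.9 and 139.4 in shHSF1/HSP990 cells, 138.8 and 119.1 in shNTC/Dox/DMSO cells, and 110.3 and 116.6 in shNTC/DMSO cells. Its changes were 0.26 with NVP-HSP990 and -0.14 with the knockdown, each with an interval that covers 0. CREB3L2, an ER-anchored relative of ATF6, had 674.6 and 621.3, 692.7 and 575.0, 638.4 and 425.7, and 674.2 and 637.9 in the same order of groups, with the lowest value on the second shNTC/Dox/DMSO array. Its change with Doxycycline alone was -0.32 (adjusted p = 1.00), and it did not pass in any comparison.

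HERPUD1, an ER membrane protein of the degradation machinery, had signals of 2056.3 and 1879.7 in shHSF1/Dox/HSP990 cells and 1831.2 and 1528.5 in shHSF1/HSP990 cells. In shNTC/Dox/DMSO cells they were 1012.5 and 989.6, and in shNTC/DMSO cells 946.4 and 1029.7. As for XBP1, every array with NVP-HSP990 (shHSF1 cells) was above every array with DMSO (shNTC cells), and the shNTC groups differed little. In the knockdown with NVP-HSP990 HERPUD1 rose by a log2 of 0.96, a fold of 1.95 (standard error 0.15, adjusted p = 0.00583 by limma), and of 19 alternatives only the methods' t-test lost this call. Tested singly among all probe sets, 217168_s_at of HERPUD1 lost it without either shHSF1/Dox/HSP990 array (adjusted p = 0.0665 and 0.0584). With NVP-HSP990, where the hairpin line differs too, the change was 0.75 (95% interval 0.41 to 1.09, adjusted p = 0.148 by limma). Quantile normalization of the arrays brought it past the threshold (adjusted p = 0.0486). With the knockdown it was 0.23 (-0.11 to 0.57, adjusted p = 0.537).

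**Figure D3:**
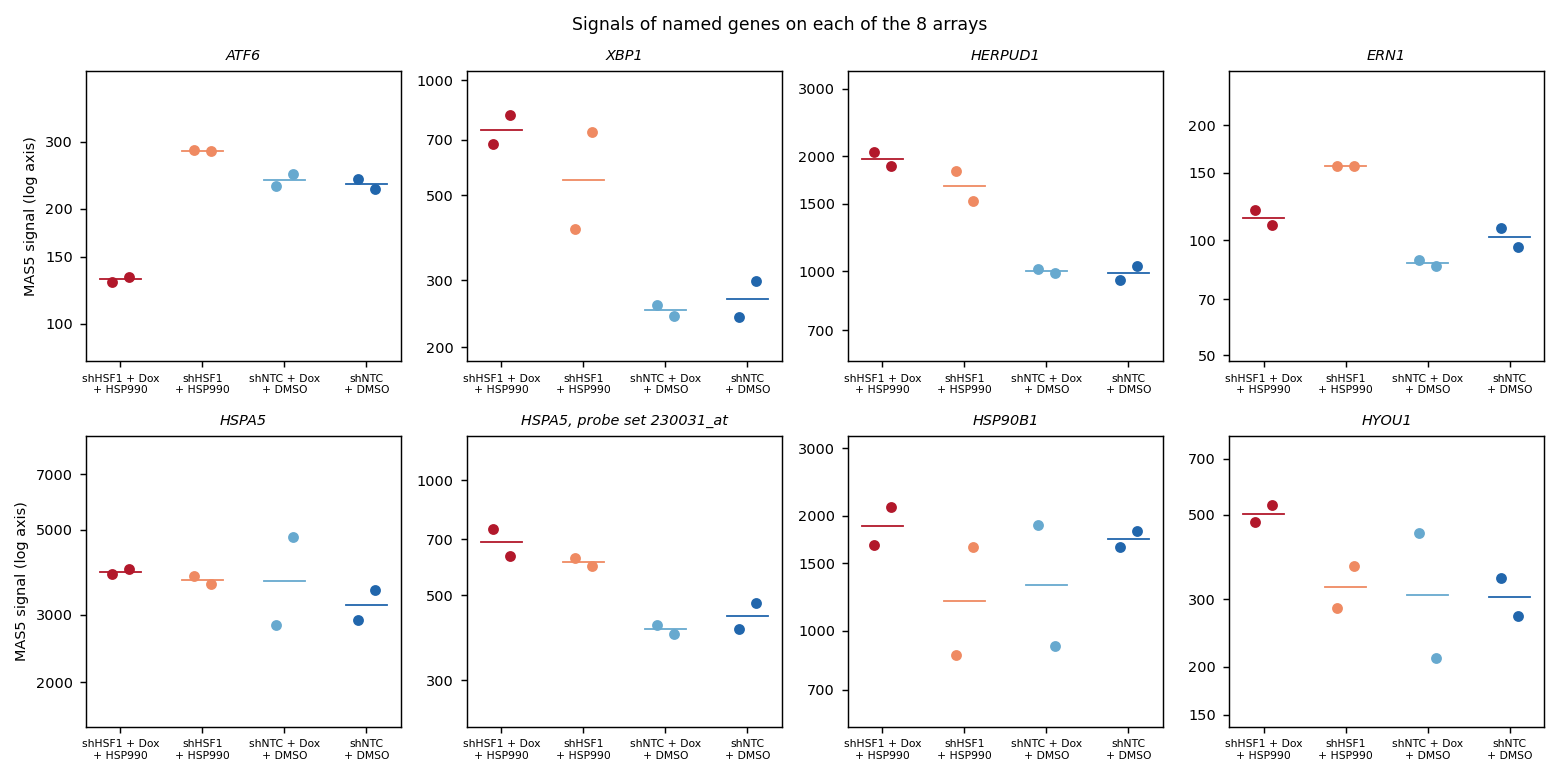
MAS5 signal (y axis, log scale, each panel with its own range) of named genes on each of the 8 arrays, by group (x axis), with the geometric mean of the 2 arrays as a line. XBP1, HERPUD1 and the second HSPA5 probe set lie higher on the 4 arrays with NVP-HSP990 (left of each panel) than on the 4 with DMSO (right). The former are all shHSF1 cells and the latter all shNTC cells. ATF6 is lowest with the induced HSF1 hairpin, and HSP90B1 and HYOU1 spread widely within groups.

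Of the ER HSP70 and HSP90 chaperones with their cochaperones, 10 genes, none passed in any of the 5 tests by limma. At an unadjusted p under 0.05 there were 2 of 10 in each test but that of Doxycycline alone, where it was 0. Over all 12672 genes there were 628 with NVP-HSP990, 1943 with the knockdown and 2472 with the knockdown with NVP-HSP990. In the interaction there were 1337 and with Doxycycline alone 306. HSPA5, encoding BiP, had signals of 3832.3 and 3942.7 in shHSF1/Dox/HSP990 cells, 3781.2 and 3600.8 in shHSF1/HSP990 cells, 2814.3 and 4789.4 in shNTC/Dox/DMSO cells, and 2905.9 and 3488.4 in shNTC/DMSO cells. The shNTC/Dox/DMSO group held both the lowest and the highest value. The log2 change of HSPA5 was 0.21 with NVP-HSP990 (95% interval -0.32 to 0.74), 0.07 with the knockdown (-0.45 to 0.60) and 0.08 with the knockdown with NVP-HSP990 (-0.45 to 0.61).

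A second HSPA5 probe set, 230031_at, had 745.7 and 634.4 in shHSF1/Dox/HSP990 cells, 625.7 and 596.0 in shHSF1/HSP990 cells, 418.1 and 397.2 in shNTC/Dox/DMSO cells, and 409.2 and 477.3 in shNTC/DMSO cells. Here all 4 arrays with NVP-HSP990 (shHSF1 cells) were above the 4 with DMSO (shNTC cells). Tested singly it rose by 0.73 with the knockdown with NVP-HSP990 (standard error 0.16, adjusted p = 0.0339 by limma). The call was lost without either shHSF1/Dox/HSP990 array or without any 1 of the 4 shNTC arrays, with changes of 0.62 to 0.85. It was 1 of 5 probe sets of the 84 called in that comparison, where 3.98% of all probe sets were called. The others were those of XBP1, HERPUD1 and ATF6 described above and 201894_s_at of SSR1.

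HSP90B1, encoding GRP94, a paralogue of the HSP90 proteins in the ER lumen, had 1672.1 and 2101.8 in shHSF1/Dox/HSP990 cells and 862.6 and 1656.7 in shHSF1/HSP990 cells. In shNTC/Dox/DMSO cells it had 1890.2 and 911.4, and in shNTC/DMSO cells 1653.0 and 1822.2. The 2 lowest values, 862.6 and 911.4, stood on the 2 arrays with the highest ACTB 3-prime to 5-prime ratios, 18.9 and 46.8, and the part of RNA quality was not tested. The log2 changes were -0.53 with NVP-HSP990 (95% interval -1.30 to 0.23), 0.64 with the knockdown (-0.12 to 1.41) and -0.40 with Doxycycline alone (-1.16 to 0.37). These intervals are as wide as any among the 37 genes. Another HSP90B1 probe set, 216450_x_at, had smaller changes of -0.24, 0.32 and 0.02 in that order of comparisons. HYOU1, an HSP110-like nucleotide exchange factor of BiP, had 477.4 and 530.4, 285.5 and 367.2, 447.1 and 211.4, and 341.3 and 271.9 in shHSF1/Dox/HSP990 cells, shHSF1/HSP990 cells, shNTC/Dox/DMSO cells, and shNTC/DMSO cells. Its highest values were on the arrays with the knockdown and its lowest on the second shNTC/Dox/DMSO array. Its change was 0.61 with the knockdown (-0.03 to 1.25, adjusted p = 0.351) and 0.68 with the knockdown with NVP-HSP990 (0.04 to 1.32, adjusted p = 0.228), and without the first shNTC/Dox/DMSO array the second became 1.19 and passed (adjusted p = 0.0282).

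Among the cochaperones of BiP, the J proteins DNAJB9 and DNAJB11 had changes of opposite sign, none of which passed. DNAJB9 had a log2 change of 0.37 with NVP-HSP990 (95% interval 0.04 to 0.71) and -0.39 with the knockdown (-0.73 to -0.06, adjusted p = 0.233 by limma). Probe sets 1554462_a_at and 202843_at of DNAJB9 had 0.55 and 0.35 with NVP-HSP990, and -0.04 and -0.34 with the knockdown. DNAJB11 had -0.42 with NVP-HSP990 (-0.79 to -0.05) and 0.50 with the knockdown (0.14 to 0.87, adjusted p = 0.160). The unadjusted intervals of both leave out 0 in both comparisons, which share the group of shHSF1/HSP990 cells. DNAJC3, an inhibitor of eIF2alpha kinases and J protein, was among the most even, with 1274.5 and 1329.3, 1131.0 and 1270.7, 1194.7 and 1255.8, and 1194.2 and 1192.5 in the same order of groups and changes of 0.01 to 0.12. DNAJC10, an ER disulfide reductase with a J domain, SDF2L1, a partner of the J proteins, SIL1, a nucleotide exchange factor of BiP, and MANF, a secreted ER stress protein, had changes between -0.16 and 0.47. A dimmer DNAJC10 probe set, 229588_at, had 0.63 with NVP-HSP990 and -0.73 with the knockdown (adjusted p = 0.896 and 0.133 by limma, tested singly). With the knockdown 221781_s_at and 225174_at of this gene had -0.13 and 0.09.

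The lectin chaperones and disulfide enzymes had 8 genes tested of 9. None passed, and none reached an unadjusted p under 0.05 in any of the 5 tests by limma. Calreticulin (CALR) had log2 changes of -0.04 with NVP-HSP990, 0.20 with the knockdown and 0.02 with the knockdown with NVP-HSP990. Calnexin (CANX) had 0.04, 0.05 and -0.22, and the disulfide isomerase PDIA3 -0.01, 0.09 and -0.02 in that order of comparisons. A dimmer PDIA3 probe set, 229453_at, had 0.09, 0.38 and 0.50. The last had an unadjusted p of 0.0159 and an adjusted p of 0.153 by limma, tested singly. Probe set 227033_at of PDIA3 had -0.05, 0.26 and 0.01. PDIA4 and PDIA6, further isomerases, lay between -0.32 and 0.21 in all 4 comparisons. Of the oxidases that recharge the isomerases, ERO1A had 0.31 and ERO1B -0.46 with the knockdown, and both intervals cover 0. Another ERO1A probe set, 222646_s_at, had -0.03. ERO1B had 276.2 and 192.0 in shHSF1/Dox/HSP990 cells, 394.4 and 265.5 in shHSF1/HSP990 cells, 404.1 and 272.4 in shNTC/Dox/DMSO cells, and 295.4 and 235.3 in shNTC/DMSO cells, and all groups overlapped. CRELD2, a protein of the ER lumen induced by ER stress, spread widely, with 269.7 and 149.3 in the first of these groups and 256.4 and 122.1 in the second.

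ER-associated degradation had 8 genes tested of 10, and HERPUD1 was the only one called. SEL1L, the adaptor of the HRD1 ubiquitin ligase, had 803.9 and 615.3 in shHSF1/Dox/HSP990 cells, against 1020.3 and 902.4 in shHSF1/HSP990 cells, 1047.7 and 966.3 in shNTC/Dox/DMSO cells, and 945.5 and 863.5 in shNTC/DMSO cells. Both arrays with the induced HSF1 hairpin were below all others in this probe set, 202061_s_at. Its log2 change was -0.44 with the knockdown (95% interval -0.81 to -0.07, adjusted p = 0.226 by limma). With the knockdown with NVP-HSP990 it was -0.51 (-0.88 to -0.14, adjusted p = 0.117), and neither passed. The other SEL1L probe sets tested, 202064_s_at and 202062_s_at, had -0.31 and -0.14 with the knockdown. In neither were both arrays with the induced hairpin below all others. EDEM1, a lectin-like factor that hands misfolded glycoproteins to degradation, had 396.6 and 380.2, 535.5 and 523.9, 694.7 and 412.1, and 563.0 and 453.1 in the same order of groups, likewise lowest with the induced HSF1 hairpin, with a change of -0.43 with the knockdown. Its relatives EDEM2 and EDEM3, the lectin OS9 and the channel proteins DERL1 and DERL2 had changes between -0.27 and 0.30 in the 4 comparisons.

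Of translocation, COPII and ER membrane genes, 6 were tested and none passed. SEC61A1 and SEC61B, subunits of the translocation channel, had log2 changes of 0.38 and 0.16 with the knockdown, and the COPII coat genes SEC24D and SEC31A 0.42 and -0.10. WFS1, the ER membrane protein wolframin, had -0.23 with the knockdown and -0.35 with the knockdown with NVP-HSP990. SSR1, a subunit of the translocon-associated protein complex, had 2907.3 and 3170.8 in shHSF1/Dox/HSP990 cells, 2909.0 and 2945.9 in shHSF1/HSP990 cells, 2006.0 and 2925.1 in shNTC/Dox/DMSO cells, and 2368.9 and 2908.3 in shNTC/DMSO cells. Its change was 0.32 with the knockdown with NVP-HSP990 (adjusted p = 0.430). Another of its 6 probe sets, 201894_s_at, had 1830.2 and 1459.4, 1476.1 and 1293.6, 961.6 and 645.7, and 1381.9 and 1332.8 in the same order of groups. Here the shNTC/Dox/DMSO cells stood lowest. Tested singly by limma, its change with Doxycycline alone was -0.77 (unadjusted p = 0.00361), which did not pass after adjustment. With NVP-HSP990 it was 0.03 and with the knockdown 0.24. With Doxycycline alone 225435_at and 226712_at of SSR1 had -0.42 and -0.63, and 200889_s_at and 200890_s_at -0.03 and -0.21. Probe set 201894_s_at rose by 1.04 with the knockdown with NVP-HSP990 (adjusted p = 0.0237 by limma). That call was lost without either shHSF1/Dox/HSP990 array, without the second shNTC/Dox/DMSO array and without either shNTC/DMSO array (adjusted p = 0.0503 to 0.129).

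The groups of 2 arrays often did not overlap, among the ER genes as among all genes. In NVP-HSP990 13 of the 37 genes had both arrays of 1 group above both of the other (35.1%, against 33.2% of all genes), 9 of them higher with NVP-HSP990. In the knockdown there were 19 (51.4%, against 43.3%), 12 higher and 7 lower. With Doxycycline alone there were 8 (21.6%, against 28.4%), and in the knockdown with NVP-HSP990 13 (35.1%, against 44.5%). These shares lie near those over all genes.

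By the 95% intervals from limma, which take the spread as equal in all groups, changes of the size of a doubling could be bounded for most genes. The calls are less sensitive. Of 100 simulated log2 changes of 1 in the knockdown 50% were recovered, and of changes of 2 it was 94%. A gene that did not pass is thus not shown to be unchanged. The 95% intervals were 0.63 to 1.53 wide on the log2 scale and lay within 1 of 0 for 34 of the 37 genes in NVP-HSP990, 33 in the knockdown, 35 with Doxycycline alone and 31 in the knockdown with NVP-HSP990. They covered 0 for 32, 33, 37 and 31 genes in that order. The spread between the 2 arrays of a group was unequal. In shHSF1/Dox/HSP990 cells 4 of the 37 genes differed by more than 0.5 between the arrays, in shHSF1/HSP990 cells 7, in shNTC/Dox/DMSO cells 12 and in shNTC/DMSO cells 0. The within-group SD over the 37 genes was 0.211, 0.268, 0.333 and 0.155 on the log2 scale in that order.

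**Figure D4:**
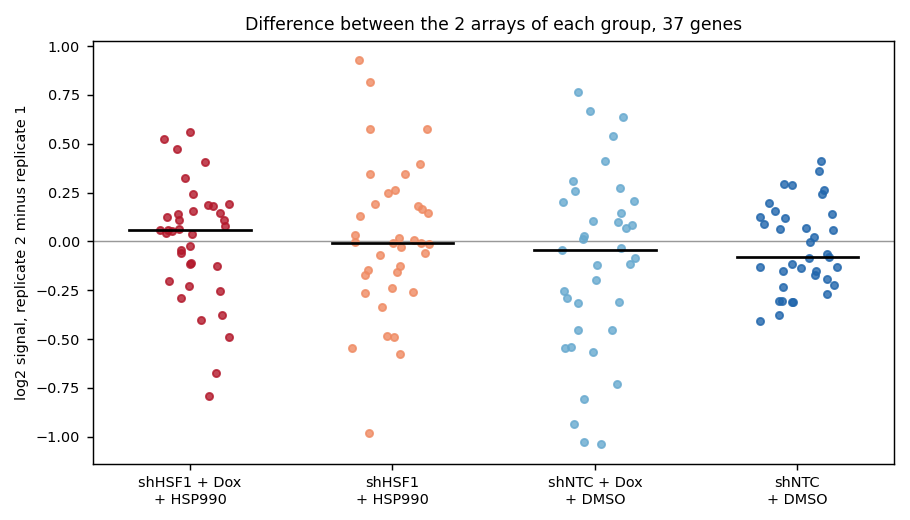
Log2 signal of replicate 2 minus replicate 1 (y axis) for each of the 37 genes in each group (x axis), with the median as a line. The points of shNTC/Dox/DMSO cells reach from -1.04 (HSP90B1) to 0.76 (HSPA5), and those of shNTC/DMSO cells stay between -0.41 and 0.41.

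Of the genes tested, 26 had several probe sets that passed the filter. With NVP-HSP990 the log2 changes of all probe sets of a gene had 1 sign for 9 of the 26, with Doxycycline alone for 12, and with the knockdown and the knockdown with NVP-HSP990 for 17 each. Probe sets of 1 gene also parted between the arrays of a group. On the second against the first array of shNTC/Dox/DMSO cells, CANX had 6529.4 against 4102.8 by 200068_s_at and 372.9 against 705.5 by 208853_s_at. PDIA4 had 2341.0 against 1884.4 by 208658_at and 54.6 against 219.6 by 211048_s_at. The second array is the one with the ACTB ratio of 46.8, and the part of RNA quality in these values was not tested.

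The 10 genes with an ERSE or ERSE-II in the promoter window were all tested. Their median log2 change was 0.14 with NVP-HSP990, 0.22 with the knockdown and 0.27 with the knockdown with NVP-HSP990, where XBP1 and HERPUD1 were called. The 24 tested genes with neither had medians of 0.06, 0.01 and 0.00, with ATF6 called in the last 2 comparisons. In the knockdown with NVP-HSP990 the 10 genes reached from -0.50 (ERO1B) to 1.51 (XBP1) and the 24 from -0.79 (ATF6) to 0.34 (ERN1), and no test was made of these groupings.

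Other genes of the stress response were read from lists beside the 40. Of 22 genes of the ATF4 and CHOP arm, which PERK feeds and other eIF2alpha kinases share, 4 rose with NVP-HSP990 by limma (0.197% of all genes were called higher): the transcription factor CHOP (DDIT3), the glutathione-degrading enzyme CHAC1, SESN2 and the cystine transporter SLC7A11. The median log2 change of the 22 was 0.70, against 0.08 for the 37 ER genes. CHAC1 had 288.2 and 353.1 in shHSF1/Dox/HSP990 cells and 248.2 and 222.9 in shHSF1/HSP990 cells, against 27.7 and 37.2 in shNTC/Dox/DMSO cells and 49.9 and 33.2 in shNTC/DMSO cells. It rose by 2.14 with NVP-HSP990 (standard error 0.22, adjusted p = 0.00306) and by 2.80 with the knockdown with NVP-HSP990 (adjusted p = 0.000231). DDIT3 had 382.1 and 451.3, 263.8 and 310.8, 98.7 and 110.8, and 117.3 and 118.2 in the same order, and rose by 1.18 (adjusted p = 0.0324) and 1.84 (adjusted p = 0.000529). In both genes the 4 arrays with NVP-HSP990 (shHSF1 cells) stood above the 4 with DMSO (shNTC cells). With the knockdown 0 of the 22 were called by limma (2.84% of all genes were), with a median of -0.02. At an unadjusted p under 0.05 there were 5 of the 22 and 1943 of all 12672 genes. With the knockdown with NVP-HSP990 10 of the 22 rose (2.84% of all genes were called higher), SESN2 by 2.11 and CTH by 2.00 among them. Without the second shNTC/DMSO array the count with NVP-HSP990 was 0, without the first it was 2, and without the second shHSF1/HSP990 array it was 2. Without the second shHSF1/Dox/HSP990 array the count with the knockdown with NVP-HSP990 was 6.

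Further ER genes were read from 3 more lists. Of 29 tested genes of ER folding and glycosylation, SERPINH1 alone was called. SERPINH1, the collagen chaperone HSP47, had 38.8 and 40.1 in shHSF1/Dox/HSP990 cells, against 204.7 and 243.3 in shHSF1/HSP990 cells, 87.9 and 72.0 in shNTC/Dox/DMSO cells and 83.3 and 71.4 in shNTC/DMSO cells. It rose by 1.36 with NVP-HSP990 (adjusted p = 0.0282), fell by 2.11 with the knockdown (adjusted p = 0.000579) and fell by 0.79 with the knockdown with NVP-HSP990 (adjusted p = 0.0476). Its promoter window holds the heat shock element, as does that of PRKCSH, 2 of 24 promoters of that list (8.33%). Of 13 tested genes of ER degradation and 23 of translocation and the COPII coat, none passed by limma in any of the 5 tests. At most 3 of either list had an unadjusted p under 0.05 in any one, where 306 to 2472 of all 12672 genes did.

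The cytosolic heat shock genes, 17 tested of 21, moved with both the inhibitor and the knockdown. With NVP-HSP990 9 rose by limma (0.197% of all genes were called higher), with a median log2 change of 1.11, and without the second shNTC/DMSO array the count was 4. With the knockdown 11 fell (1.85% of all genes were called lower), with a median of -1.26. With the knockdown with NVP-HSP990 0 of 17 rose and 2 fell, HSPB1 and BAG3 (2.99% of all genes were called lower), with a median of -0.22. That count was 5 without the first shNTC/Dox/DMSO array, 0 without the second, and 1 and 0 without the first and the second shHSF1/Dox/HSP990 array. HSPA6, an inducible HSP70, had 18.3 and 12.4 in shHSF1/Dox/HSP990 cells, against 1680.8 and 1328.5 in shHSF1/HSP990 cells, 5.1 and 12.7 in shNTC/Dox/DMSO cells and 8.0 and 15.5 in shNTC/DMSO cells. On the arrays with the knockdown XBP1 had 682.6 and 810.1, and HERPUD1 had 2056.3 and 1879.7. In the reported fit neither was called with NVP-HSP990, where the hairpin line differs too, or with the knockdown. Whether their levels are independent of HSF1 was not tested.

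**Figure D5:**
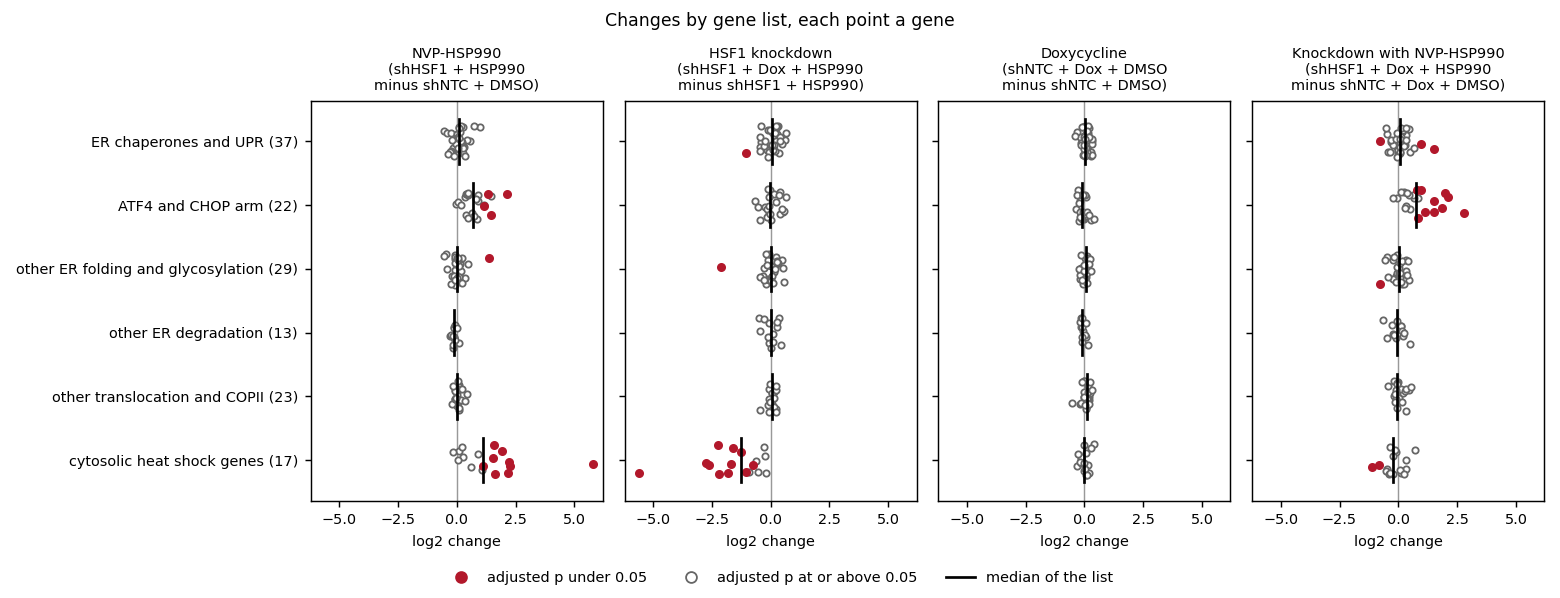
Log2 change (x axis) of each tested gene of 6 lists (y axis, number tested in brackets) in 4 comparisons, with the list's median as a line and filled points where the adjusted p was under 0.05. The 37 ER genes have medians of 0.04 to 0.08 in all 4, while the cytosolic heat shock genes have medians of 1.11 with NVP-HSP990 and -1.26 with the knockdown, and the ATF4 and CHOP arm 0.70 with NVP-HSP990 and 0.73 with the knockdown with NVP-HSP990.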

How the data were processed

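RNA of A375 cells was hybridized by the authors to HG-U133 Plus2 arrays, 2 for each of 4 groups taken from the sample titles. The files hold the intensities the authors obtained with MAS5 (version not given in the sources used here). These are linear values with a mean of 150 on every array once 2 percent of probe sets are trimmed at each end, and no further normalization was applied. Their number limits the precision.

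The array annotation gave 41091 of 54675 probe sets a single symbol, 1801 several and 11721 none, and 62 were controls. Of several probe sets, the brightest by mean log2 signal stood for its gene. log2(signal + 16) of 12672 genes was fitted with limma 3.58.1 in R 4.3.3, as 4 group means over 8 arrays with an intensity trend in the variances (4 residual and 6.36 prior degrees of freedom). Tests were two-sided, after Benjamini-Hochberg adjustment over all genes tested, with calls at an adjusted p under 0.05. All 24631 single-symbol probe sets above the filter were also tested singly. The steps were tested on simulated data. Promoters came from RefSeq (GRCh38.p14).

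The 40 genes, the other lists and the tests were chosen with earlier results of these data known. Values per array were given for genes called in any test, for HSPA5, HSP90B1, XBP1, ATF6, ERN1 and EIF2AK3, and for the 3 largest changes in each comparison. CANX, CRELD2, DNAJC3, EDEM1, PDIA4 and SEL1L were given in this way after their values were seen. Of other lists up to 4 called genes were named. The study's statistics section names a Student test, here the methods' t-test. The description fields of the samples name other experiments and were not used.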

Additional observations from a re-analysis of the deposited data

Results flagged for a closer look

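None of the 37 ER genes had a change with the knockdown that differed from the change with Doxycycline alone by the interaction in limma, with ATF6 nearest (-1.06, adjusted p = 0.0756). With the replicate number as a block ATF6 passed (-1.06, adjusted p = 0.0350). Of the genes named beside them, 3 did. SERPINH1 had an interaction of -2.15 on the log2 scale (adjusted p = 0.0116), BAG3 of -2.74 (adjusted p = 0.00149) and HSPA6 of -5.44 (adjusted p = 0.000172). This contrast differs in hairpin and in inhibitor at once. Groups of 2 arrays do not allow a test for a single outlying array.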

How the results depend on the processing

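Over the 37 genes and all comparisons, 3420 of 3441 values under an alternative kept their side of the threshold, 15 lost the call and 6 gained it. The sign differed from that of the value reported in 182, none of them called in either fit, and 122 of these were of changes under 0.1 in size. The largest change to turn was that of HSP90B1 in the knockdown with NVP-HSP990, 0.51, which became -0.01 without the second shNTC/Dox/DMSO array. With NVP-HSP990 the count of ER genes called was 1 with quantile normalization (HERPUD1) and 0 to 1 with 1 array left out. With the knockdown it was 0 when only the arrays of the comparison were fitted, 0 with the methods' t-test and 0 to 1 with 1 array left out. With the knockdown with NVP-HSP990 it was 1 with a gene's probe sets averaged, 0 with the methods' t-test and 1 to 4 with 1 array left out. Single probe sets called ranged from 0 to 1 in the knockdown and from 0 to 5 in the knockdown with NVP-HSP990 with 1 array left out. The methods' t-test gave 7 of 37 ER genes and 1413 of all genes unadjusted in the knockdown, and 0 of each after Benjamini-Hochberg. The cause was not tested, beyond the fewer samples in fits of fewer arrays.

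With the replicate number as a block, 0 ER genes were called with NVP-HSP990, 1 with the knockdown, 4 with the knockdown with NVP-HSP990 (SEL1L added, adjusted p = 0.0353) and 1 in the interaction (ATF6, adjusted p = 0.0350). Deviations of same-numbered arrays correlated at 0.0156 to 0.685 between groups, in 4 of 6 pairs of groups at 0.198 or more and in the other pairs at 0.0156 and 0.0232. The titles mark the second array of each group as a repeat. The labels do not say that a number marks a shared batch or day, so the pairing is not established and the unblocked fit was kept. Over all genes the counts were 360 in the knockdown and 739 in the knockdown with NVP-HSP990, 752 and 1237 with the block, 221 and 450 with no filter, 95 and 648 with only the arrays of the comparison, and 123 to 380 and 263 to 802 with 1 array left out. With NVP-HSP990 they were 28, against 16 with no filter, 44 with the block and 5 to 30 with 1 array left out. In the interaction they were 100, against 59 with no filter, 279 with the block and 7 to 76 with 1 array left out.

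For the ATF4 and CHOP arm and the cytosolic heat shock genes, whose alternatives were chosen after seeing the data, the counts with NVP-HSP990 were 0 to 4 and 4 to 10 with 1 array left out, with the knockdown 0 and 8 to 11, and with the knockdown with NVP-HSP990 6 to 10 and 0 to 5. After Benjamini-Hochberg the methods' t-test called 0 genes of either list, as of all genes, in each of the 4 comparisons. Depth is not defined for these arrays, and dim genes such as DERL3 cannot be read.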
